A study of Mus musculus with 22 samples.

Results

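Sox17, the 3 Foxa genes, Trh, Krt8 and Krt18 were followed in gastruloids, cultured aggregates of mouse embryonic stem cells in which lineages of the early embryo appear. The 7 genes were taken by symbol from the 32285 genes of the count tables, and each symbol matched 1 row. All groups were wild type and came from a single mouse line, E14Tg2A, so no genetic background other than this one was covered. Each gastruloid started from 300 cells, which aggregated over 48 h before a pulse of 3 µM CHIR99021, a compound that inhibits the kinase GSK3 and so activates Wnt signalling. The gastruloids that entered the MULTI-seq experiments had been picked as representative of their day, per the labels, and each received its own lipid-anchored DNA barcode before pooling, so that a cell can be traced to its gastruloid. The groups with such calls were day 5 of MULTI-seq 1 (24 gastruloids), days 4 and 4.5 of MULTI-seq 2 pool B (11 and 12 gastruloids), and days 3, 3.5, 4, 4.5 and 5 of MULTI-seq 3 (24, 16, 16, 16 and 16 gastruloids). In 4 lanes no gastruloid calls were given, and these lanes are described one by one: days 3 and 4 of the 10X experiment and pool C of MULTI-seq 2.

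These genes mark a shared lineage. Definitive endoderm, the layer that forms the lining of the gut and its organs, arises from the anterior end of the primitive streak. Sox17 is an HMG-box transcription factor required for definitive endoderm and also active in blood vessel lining, while Foxa1, Foxa2 and Foxa3 are forkhead factors that can bind closed chromatin, with Foxa2 acting in anterior streak, notochord and floor plate as well. Trh encodes the precursor of thyrotropin-releasing hormone, which is best known from the hypothalamus. Krt8 and Krt18 encode a type II and a type I keratin that pair to form the intermediate filaments of simple epithelia.

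The genes lie on 6 chromosomes of GRCm38 (mm10), with positions from GENCODE vM21. Sox17 lies at chr1:4490931-4497354 and overlaps an antisense gene, Gm37587. Foxa1 lies at chr12:57540628-57546916, Foxa2 at chr2:148042877-148046969, Foxa3 at chr7:19013284-19023538 and Trh at chr6:92242061-92244650. Krt8 at chr15:101996698-102004482 and Krt18 at chr15:102028180-102032027 are neighbours on opposite strands, with a gap of 23697 bases, and Krt8 overlaps the antisense gene Gm36026. In Mature Endoderm, Gm37587 stood at 1.74 CPM (counts per 1000000 UMIs) and Gm36026 at 0.907 CPM, against 269 CPM for Sox17 and 468 CPM for Krt8.

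Because the 7 genes were high in the same cells, the 250 bases before their transcription starts were read from RefSeq (GRCm38.p6), which held an entry for 6 of the 7, all but Sox17. RefSeq starts can differ from those of the annotation used for the gene positions above: the Foxa1 window and 2 of the 3 Foxa2 windows lie inside the genes as given there, and the Krt8 and Krt18 windows overlap them in part. The windows were searched on both strands for a forkhead motif (TGTTTAC, in 3.17% of 32851 promoter windows of that length), a SOX motif (ACAATG, in 10.7%), a GATA motif (AGATAA, in 9.99%) and a TATA box (TATAAA, in 12.4%). Windows are given for 3 genes that differ in what they hold: Foxa1 with a forkhead match, Foxa3 with a TATA box, and Trh, the member with the highest level in Mature Endoderm, with a match to none. Capitals mark a match as read on the gene's own strand.
Foxa1 (chr12:57546112-57546361, minus strand): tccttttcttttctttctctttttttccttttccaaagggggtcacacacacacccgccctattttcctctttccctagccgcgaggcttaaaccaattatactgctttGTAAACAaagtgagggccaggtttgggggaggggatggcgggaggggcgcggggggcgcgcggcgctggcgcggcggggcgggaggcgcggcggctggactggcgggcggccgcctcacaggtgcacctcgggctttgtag
Foxa3 (chr7:19023540-19023789, minus strand): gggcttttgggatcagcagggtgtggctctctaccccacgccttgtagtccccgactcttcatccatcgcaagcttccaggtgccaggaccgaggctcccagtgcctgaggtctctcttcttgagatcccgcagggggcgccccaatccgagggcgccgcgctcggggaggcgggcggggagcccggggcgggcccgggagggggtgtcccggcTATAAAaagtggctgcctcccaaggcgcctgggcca
Trh (chr6:92244651-92244900, minus strand): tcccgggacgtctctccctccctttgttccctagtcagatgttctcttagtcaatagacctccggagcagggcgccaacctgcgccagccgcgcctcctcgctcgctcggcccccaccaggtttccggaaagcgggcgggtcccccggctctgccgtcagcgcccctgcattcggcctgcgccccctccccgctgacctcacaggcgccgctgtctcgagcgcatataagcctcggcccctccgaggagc
The forkhead match before Foxa1 was on the strand opposite to the gene and ended 134 bases from the start. In the Foxa3 window the TATA box was on the gene's strand, 30 bases from the start. The Krt8 window held a GATA match, 1 of the 3 windows of Foxa2 held a GATA and a TATA box match, and the Krt18 window held none of the 4. A match is a run of letters and not evidence of binding. Only the exact letters were searched, so a window without a match can hold a variant. Near the transcription start the Trh window holds tataag and the Krt18 window tataac, which were not counted.

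The cell types were the authors' named clusters, 25 in all, and 22 of them were used here. The names rest on expression in the same cells, so differences between types are described and not tested. Fits inside or outside Mature Endoderm, with their p-values, are conditional on these names. Of the 8 markers chosen for Mature Endoderm, 6 had their highest level there, and 5 of the 8 are also among 19 epithelial genes, of which 16 did. So did 8 of 13 gut tube genes, but only 5 of 19 endoderm and gut transcription factors and 5 of 14 visceral endoderm genes. The 19 factors summed to 577 CPM in Mature Endoderm and 2295 CPM in Anterior Primitive Streak. The 10 endothelial markers summed to 5.11 CPM in Mature Endoderm and 1917 CPM in Endothelium, the 6 notochord markers to 214 and 1320 CPM in Mature Endoderm and Notochord, and the 7 anterior streak markers to 348 and 2804 CPM in Mature Endoderm and Anterior Primitive Streak. Of the 6 notochord markers, 4 had their second highest level of the 22 types in Mature Endoderm, among them Shh at 32.5 CPM (103 in Notochord) and Chrd at 28.2 CPM (57.5 in Notochord).

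Sequencing depth differed between groups. Per gastruloid, 1293296 to 57333371 UMIs were summed, lowest in MULTI-seq 1 and highest at day 4 of MULTI-seq 3, and the median cell of a lane had 8287 to 38443 UMIs. Cell barcode sequences that occur in more than 1 lane numbered 732 and covered 1471 of 77674 cells; they were kept as separate cells of their lanes. Days 3 and 3.5, and days 4 and 4.5, of MULTI-seq 3 came from different pools, so there day and pool cannot be told apart. Nothing in the labels says that gastruloids of a day came from separate stem cell cultures. The p-values of the fits rest on the spread between gastruloids, which edgeR moderates for each gene with that of all genes tested.

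Of the transcription factors, Sox17 was high in 3 cell types. Over gastruloids with at least 10 cells of the type, its level was 269 ± 55.5 CPM in Mature Endoderm (SD, n = 46), 206 ± 63.8 in Anterior Primitive Streak (n = 4) and 91.2 ± 28.0 in Endothelium (n = 7). The first pair differed by less than the larger SD, and the fourth type in order, Notochord, had 3.74 ± 7.39 CPM (n = 18). Means by type, here and below, pool experiments and days. Anterior Primitive Streak was a mean of 2.33% of cells at day 3 of MULTI-seq 3 and 0.315% at day 3.5. Only 1 of the 46 Mature Endoderm gastruloids was from day 3, so type and day are mixed. In the 10X day 3 lane, Mature Endoderm (54 cells) had 453 CPM and Anterior Primitive Streak (107 cells) 224 CPM. Their exact Poisson intervals, 416 to 493 and 203 to 246 CPM, did not overlap but cover counting error only. In Endothelium the other 6 members were near the floor of counting, from 0 CPM for Foxa3 to 2.68 ± 3.37 CPM for Krt18 (n = 7).

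Foxa2 was spread over more of the axial lineages. It measured 169 ± 34.4 CPM in Anterior Primitive Streak (n = 4), 156 ± 50.3 CPM in Notochord (n = 18) and 129 ± 25.0 CPM in Mature Endoderm (n = 46), and neighbours in this order lay within their spread. Primitive Streak followed with 27.3 ± 19.8 CPM (n = 46), beyond the spread of Mature Endoderm. Within the 10X day 3 lane the order was another. Mature Endoderm (54 cells) had 193 CPM of Foxa2, Notochord (20 cells) 186 CPM and Anterior Primitive Streak (107 cells) 142 CPM. The exact Poisson intervals were 168 to 219, 138 to 245 and 126 to 160 CPM and cover counting error only.

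Foxa1 and Foxa3 were higher in Mature Endoderm than in each other type. Foxa1 measured 47.9 ± 24.4 CPM there (n = 46), 18.4 ± 11.3 in Notochord (n = 18) and 8.51 ± 4.55 in Anterior Primitive Streak (n = 4). Foxa3, which is best known from liver and gut, had 8.80 ± 6.53 CPM in Mature Endoderm (n = 46), with 3 of the 46 gastruloids at 0. Its next highest type, Anterior Primitive Streak, had 0.689 ± 1.38 CPM with 3 of 4 gastruloids at 0.

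Trh in Mature Endoderm measured 2458 ± 951 CPM (n = 46), with a lowest gastruloid at 408 and a highest at 5036 CPM. Notochord with 150 ± 143 CPM (n = 18) and Anterior Primitive Streak with 150 ± 140 CPM (n = 4) came next and did not differ beyond their spread. Primordial germ cells (PGCs) did not reach 10 cells in a gastruloid, so only a pooled value exists: 711 CPM over 279 cells, with an exact Poisson 95% interval of 695 to 727 CPM that covers counting error only. The other members were low in the same cells, with Sox17 at 12.1 CPM and Foxa2 at 6.43 CPM. The PGC level of Trh was 810 CPM at day 3 of MULTI-seq 3 (141 cells), 806 CPM at day 4 (18 cells) and 237 CPM at day 5 (15 cells). It was 1258 CPM in the 10X day 3 lane (15 cells) and 514 CPM at day 5 of MULTI-seq 1 (6 cells). In the same 279 cells the 7 germ cell markers summed to 988 CPM with none at 0 and the 8 Mature Endoderm markers to 581 CPM, with none at 0. A single gene held 713 CPM of the first sum, and a single gene 363 CPM of the second. Primitive Streak cells had 756 and 511 CPM on these lists, so neither sum alone is particular to germ cells or endoderm. A single gene held 723 of those 756 CPM. The other germ cell markers together were therefore higher in PGCs than in Primitive Streak. Whether endoderm transcripts had a part in the Trh level was not tested.

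Both keratins were highest in Mature Endoderm. Krt8 measured 468 ± 100 CPM in Mature Endoderm (n = 46), 167 ± 59.8 in Notochord (n = 18) and 153 ± 77.6 in Anterior Primitive Streak (n = 4). Krt18 measured 628 ± 186 CPM in Mature Endoderm (n = 46), 153 ± 50.3 in Notochord (n = 18) and 59.9 ± 24.3 in Anterior Primitive Streak (n = 4). For both genes the step from Mature Endoderm to Notochord was beyond the spread. Krt8 did not differ beyond its spread between Notochord and Anterior Primitive Streak, whereas Krt18 did.

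**Figure D1:**
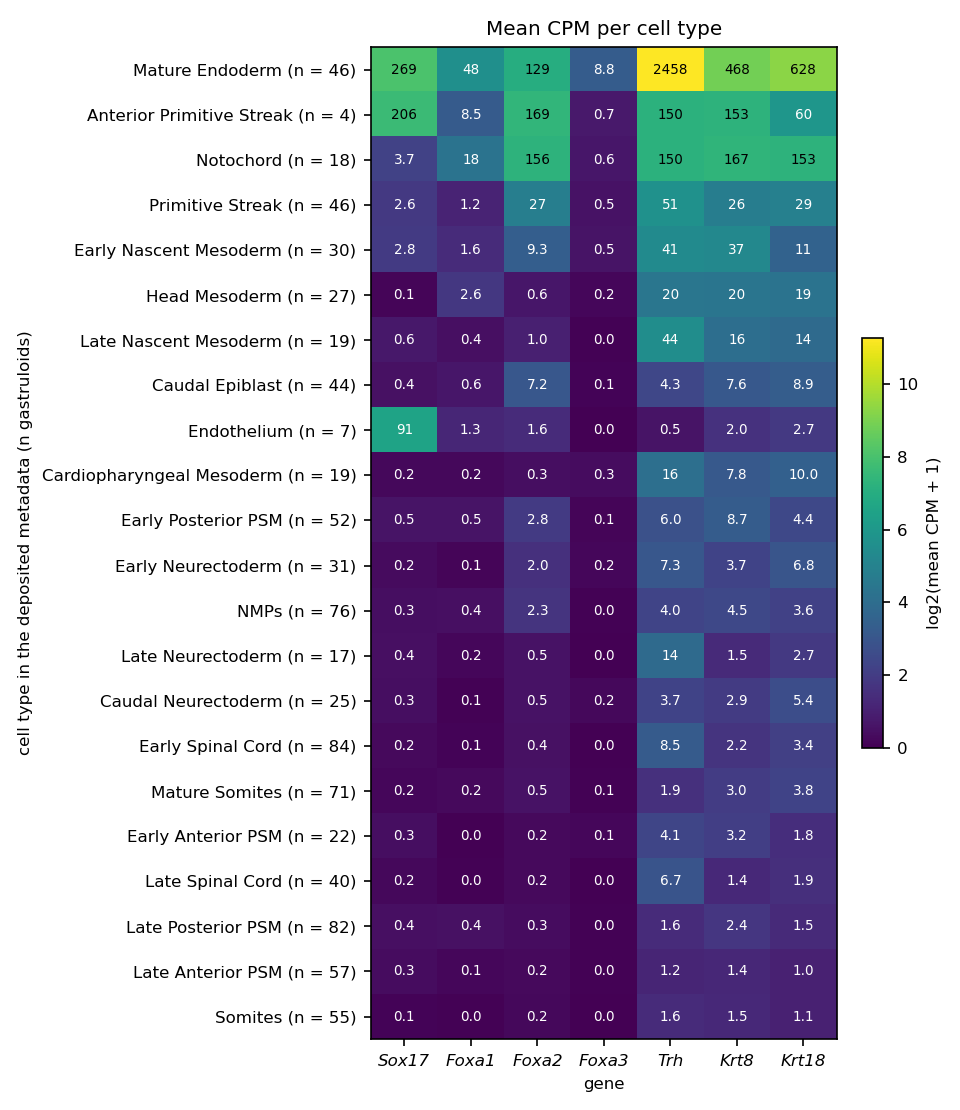
Mean level of the 7 genes (columns) in 22 cell types (rows), in CPM averaged over gastruloids with at least 10 cells of the type, on a log colour scale. Mature Endoderm is the row in which 6 of the genes peak, Foxa2 is as high in Anterior Primitive Streak and Notochord, and Endothelium is high in Sox17 alone.

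Shares of cells with a UMI were read after each cell had been thinned to 5000 UMIs. Of 2202 Mature Endoderm cells, 92.9% held a Trh UMI, 89.0% Krt18, 85.1% Krt8, 65.5% Sox17, 42.1% Foxa2, 16.8% Foxa1 and 5.00% Foxa3 (unthinned: 97.2%, 99.5%, 99.6%, 95.6%, 91.2%, 68.1% and 28.6%). Of the 2202 cells 1188 came from day 4 of MULTI-seq 3, and the order changed between groups. At day 5 Trh had 84.4% and both keratins 91.2% in MULTI-seq 1, and Trh 82.6% and Krt18 87.5% in MULTI-seq 3. At day 3.5 of MULTI-seq 3 Krt18 had 60.9%, below Krt8 (80.4%) and Sox17 (67.4%). At its day 3 Sox17 (81.6%) was above Krt8 (77.6%). Over the groups Foxa3 ran from 1.36% to 11.7% and Foxa1 from 11.7% to 25.9%. In Somites, a mesodermal type that should lack these genes, the shares were at most 0.970%, with median depths of 26142.5 UMIs per cell in Somites and 36884 in Mature Endoderm. The Endothelium share for Sox17 was 31.9% (exact binomial 95% interval 26.0% to 38.3%), that of PGCs for Trh 72.2% (62.1% to 80.8%) and that of Notochord for Foxa2 47.0% (43.7% to 50.4%). In Notochord only 1.94% of cells held a Sox17 UMI, although 42.1% held Krt18. These intervals cover counting error only.

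Within Mature Endoderm the genes were found in the same cells about as often as their separate shares predict. Where a gene is held by nearly all cells, as Trh is, the product leaves little room for a difference. For Sox17, Foxa1 and Foxa2, most cells without a UMI after thinning had one before it. Detection is thus largely a matter of sampling, and shares near the product do not show that the genes vary independently. Sox17 and Trh were both seen in 62.2% of cells, against 60.9% for the product of their shares. For Krt8 and Krt18 the values were 76.8% and 75.7%, for Sox17 and Foxa2 28.7% and 27.6%, and for Foxa1 and Foxa2 7.45% and 7.09%. A cell with Sox17 held Trh in 94.9% of cases and a cell without it in 89.1%.

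The authors also mapped each cell to a type of an embryo reference, which splits the Mature Endoderm cells with a gastruloid call further. Cells mapped to Gut tube (1081 cells) had 2726 CPM of Trh and those mapped to Anterior Primitive Streak (350 cells) 3242 CPM. Midgut (333 cells) had 1335, Foregut (132 cells) 1176 and Hindgut (138 cells) 1047 CPM. These values pool experiments and days, between which both Trh and the mix of mapped names differed. Within day 4 of MULTI-seq 3, Trh was 2830 CPM in Gut tube (619 cells), 1395 in Midgut (182 cells), 1131 in Foregut (83 cells) and 1659 in Hindgut (21 cells). At day 5 of MULTI-seq 1, Gut tube (53 cells) had 1912, Foregut (9 cells) 1926, Midgut (44 cells) 1330 and Hindgut (32 cells) 1034 CPM, so Foregut was not lower there. Foxa1 and Krt18 had another order: Midgut cells had 70.9 CPM of Foxa1 and 926 CPM of Krt18, whereas the cells mapped to Anterior Primitive Streak had 27.8 and 380 CPM. Sox17 ranged only from 182 CPM in Foregut to 303 CPM in Visceral endoderm (52 cells). Those 52 cells had 39.9 CPM of Foxa3, against 3.93 to 13.1 CPM in the other mapped names given here. Over gastruloids with at least 10 such cells, Trh measured 2814 ± 941 CPM in Gut tube (n = 28), 3051 ± 766 in Anterior Primitive Streak (n = 12) and 1197 ± 485 in Midgut (n = 8). The mapping used expression of the same cells, so this is a description.

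For the whole gastruloid, fewer Mature Endoderm cells and less RNA per cell cannot be told apart from the level alone. The percent of cells named Mature Endoderm was 0.853 ± 2.22 on day 3 of MULTI-seq 3 (n = 24) and 0.674 ± 1.12 on day 3.5, and then 7.73 ± 5.50 on day 4, 3.29 ± 4.19 on day 4.5 and 4.18 ± 4.27 on day 5 (n = 16 each), with SDs close to or above the means. In MULTI-seq 2 it was 5.43 ± 4.53 at day 4 (n = 11) and 2.42 ± 2.65 at day 4.5 (n = 12), and in MULTI-seq 1 it was 1.79 ± 2.27 at day 5 (n = 24). No Mature Endoderm cell was seen in 41 of 136 gastruloids, whereas each of the 16 at day 5 of MULTI-seq 3 had at least 0.290%. Seeing such a cell also depends on the cells recovered. The median gastruloid had 697 cells in that group, 854 at day 4 of MULTI-seq 3 and 143 to 399.5 in the other groups.

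Sox17 per whole gastruloid of MULTI-seq 3 had a lowest, median and highest level of 0.666, 3.81 and 79.8 CPM at day 3, and of 0, 1.61 and 18.5 CPM at day 3.5. At day 4 these were 0.617, 31.1 and 65.6 CPM, at day 4.5 0, 5.33 and 62.8 CPM, and at day 5 0.825, 10.5 and 47.0 CPM. The range of each day overlapped that of each other day, and the highest single gastruloid was at day 3. In MULTI-seq 2 the levels were 0, 26.7 and 101 CPM at day 4 and 0, 4.76 and 25.6 CPM at day 4.5. Day 5 of MULTI-seq 1 had 0, 3.50 and 36.2 CPM. The median was highest at day 4 in both experiments that sampled it.

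Foxa2 had its early high level at day 3. Its lowest, median and highest gastruloids of MULTI-seq 3 stood at 11.5, 17.8 and 63.6 CPM on day 3 and at 2.17, 4.43 and 13.9 CPM on day 3.5. On day 4 they stood at 2.35, 18.7 and 45.9 CPM, on day 4.5 at 0, 4.38 and 57.9 CPM, and on day 5 at 0.0917, 6.34 and 43.8 CPM. In MULTI-seq 2 they were 0.496, 15.3 and 44.9 CPM at day 4 and 0.796, 4.09 and 19.4 CPM at day 4.5, and in MULTI-seq 1 0, 3.60 and 22.4 CPM at day 5. At day 3 no gastruloid was below 11.5 CPM, while at day 3.5 the highest was 13.9 CPM. Foxa1 was low throughout, with group means of 0.624 ± 0.598 CPM (day 3.5 of MULTI-seq 3, n = 16) to 5.03 ± 4.62 CPM (day 4, n = 16). Foxa3 group means ran from 0.192 ± 0.284 CPM (MULTI-seq 1, n = 24, with 14 gastruloids at 0) to 1.44 ± 1.07 CPM (day 4 of MULTI-seq 3, n = 16), which is at most 144 UMIs in a gastruloid.

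Trh per whole gastruloid had a lowest, median and highest level of 12.3, 23.0 and 344 CPM on day 3 of MULTI-seq 3, and of 2.60, 12.9 and 220 CPM on day 3.5. On day 4 these were 8.02, 321 and 617 CPM, on day 4.5 1.88, 87.4 and 579 CPM, and on day 5 4.68, 90.8 and 247 CPM. In MULTI-seq 2 it had 0.534, 238 and 881 CPM at day 4 and 3.03, 48.5 and 221 CPM at day 4.5. MULTI-seq 1 had 1.36, 21.6 and 200 CPM at day 5. Gastruloids of 1 day thus spanned a range of more than 10-fold in each of the 8 groups, from those with barely any Trh to those with at least 200 CPM.

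The keratins, like Trh, had their highest medians at day 4 in both MULTI-seq experiments with calls for that day, in MULTI-seq 2 against day 4.5 alone. Over all cells of the 10X day 3 and day 4 lanes, Trh had 151 and 134 CPM, Krt8 41.1 and 42.2 CPM and Krt18 32.6 and 42.5 CPM. Krt18 had median levels of 18.6, 9.74, 72.8, 14.0 and 28.2 CPM over the 5 days of MULTI-seq 3, with highest gastruloids at 73.7, 30.3, 306, 201 and 238 CPM. Krt8 had medians of 19.2, 9.28, 70.0, 11.0 and 17.0 CPM. In MULTI-seq 2 the medians were 40.0 and 17.6 CPM for Krt18 and 36.0 and 14.8 CPM for Krt8 at days 4 and 4.5. In MULTI-seq 1 they were 13.8 and 10.8 CPM.

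**Figure D2:**
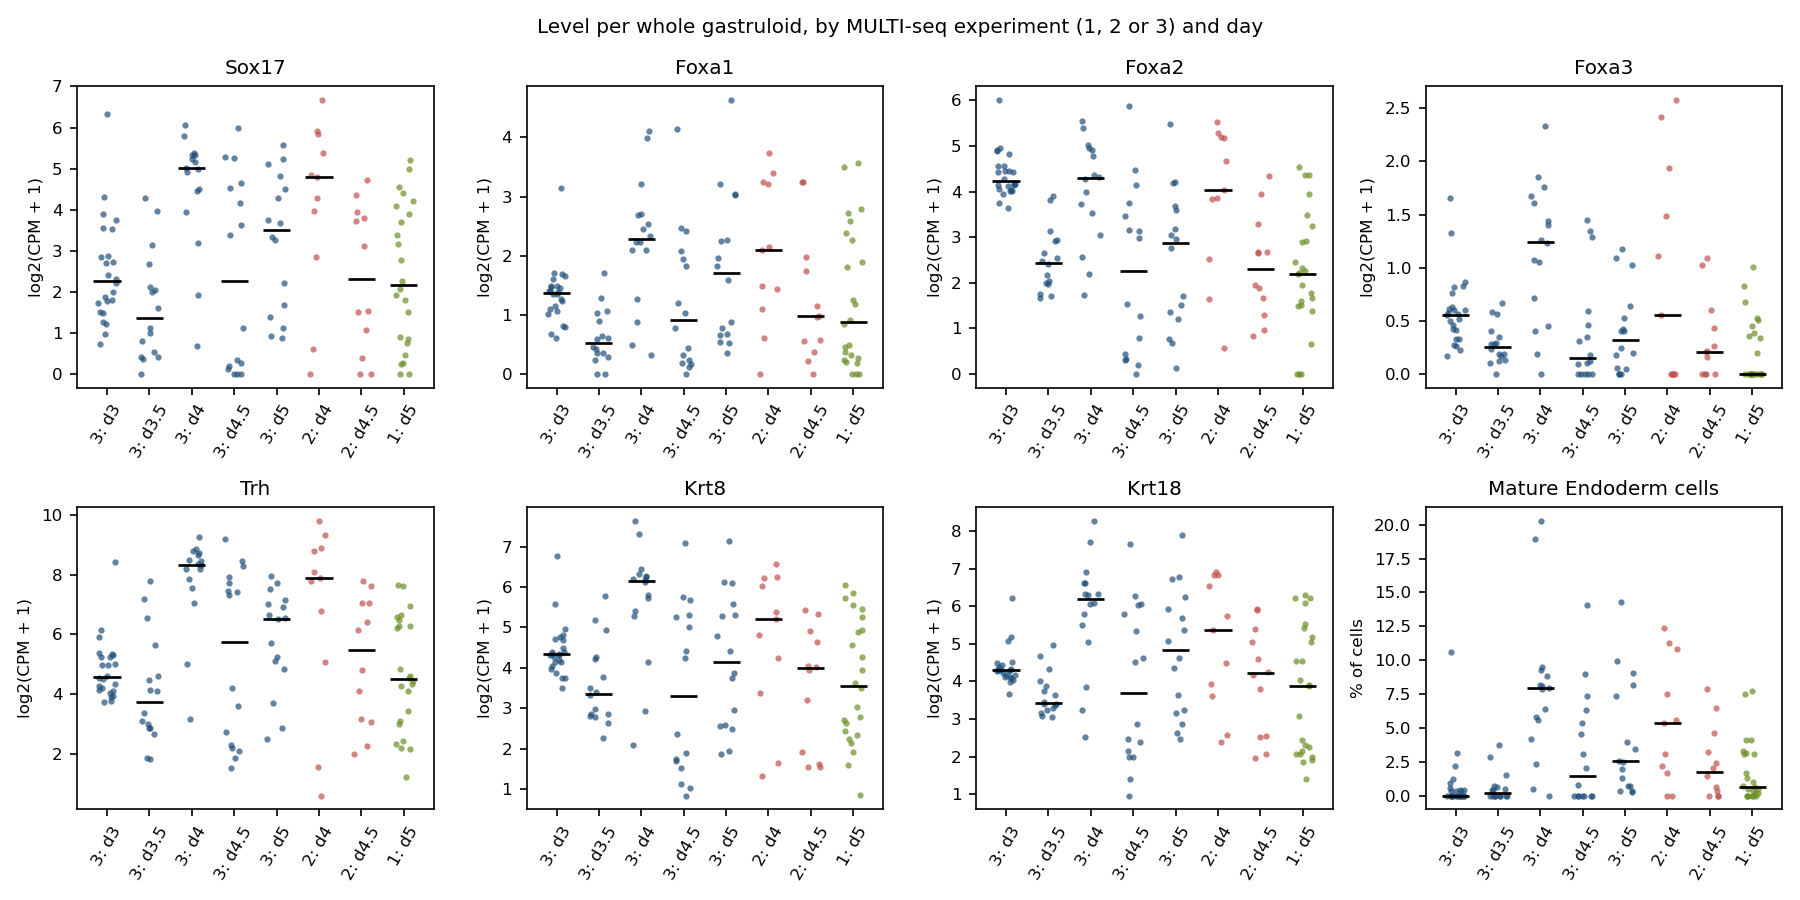
Level of each gene per whole gastruloid as log2(CPM + 1), and the percent of cells named Mature Endoderm, by experiment and day. Each point is 1 gastruloid and the black line the median of the group; at day 4 the medians of Sox17, Trh, Krt8 and Krt18 are above those of the other days in the same experiment.

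Which cells supplied the UMIs changed with the day, in shares pooled over the gastruloids of a group. At day 3 of MULTI-seq 3, 50.8% of the Sox17 UMIs came from Anterior Primitive Streak and 42.6% from Mature Endoderm, while at days 4 and 4.5 Mature Endoderm supplied 96.6% and 96.8%. At day 5 its share was 89.8%, with 8.06% from Endothelium, and in MULTI-seq 1 it was 81.7% with 15.0% from Endothelium. Foxa2 UMIs at day 3 came to 65.2% from Primitive Streak and to 5.72% from Mature Endoderm. From day 4 on, Mature Endoderm supplied 67.1% to 74.1% of them in MULTI-seq 3 and Notochord 18.9% to 24.2%. Trh UMIs at day 3 came to 42.9% from Mature Endoderm, 23.7% from Primitive Streak and 21.5% from PGCs, and from day 4 on to 92.5% or more from Mature Endoderm in that experiment. For Krt18 the Mature Endoderm share was 17.6% at day 3 and 85.3% to 88.6% from day 4 on, and for Krt8 19.6% and 80.3% to 85.3%. These pooled shares weigh the gastruloids with many Mature Endoderm cells most. At day 4.5 the mean share per gastruloid with at least 20 UMIs of the gene was 55.5% ± 47.8 for Trh (SD, n = 15), 54.4% ± 43.5 for Krt18 (n = 14) and 60.4% ± 38.5 for Krt8 (n = 12), so single gastruloids of that day differed widely. At day 3 the mean shares per gastruloid put Mature Endoderm lower. For Trh they were 19.1% ± 27.3 from Mature Endoderm, 39.1% ± 24.3 from Primitive Streak and 28.6% ± 24.2 from PGCs (n = 24), an order other than the pooled one. The Mature Endoderm mean was 9.36% ± 16.8 for Krt18 and 9.68% ± 17.2 for Krt8 (n = 24). Primitive Streak was a mean of 57.1% of the cells at day 3. Its mean share of UMIs was 69.9% ± 13.2 for Foxa2, 62.7% ± 15.8 for Krt18 and 51.8% ± 16.2 for Krt8 (n = 24). A whole-gastruloid level of Foxa2 or of a keratin at day 3 is therefore in large part a level of the streak. For the keratins these shares were near the streak's share of cells.

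**Figure D3:**
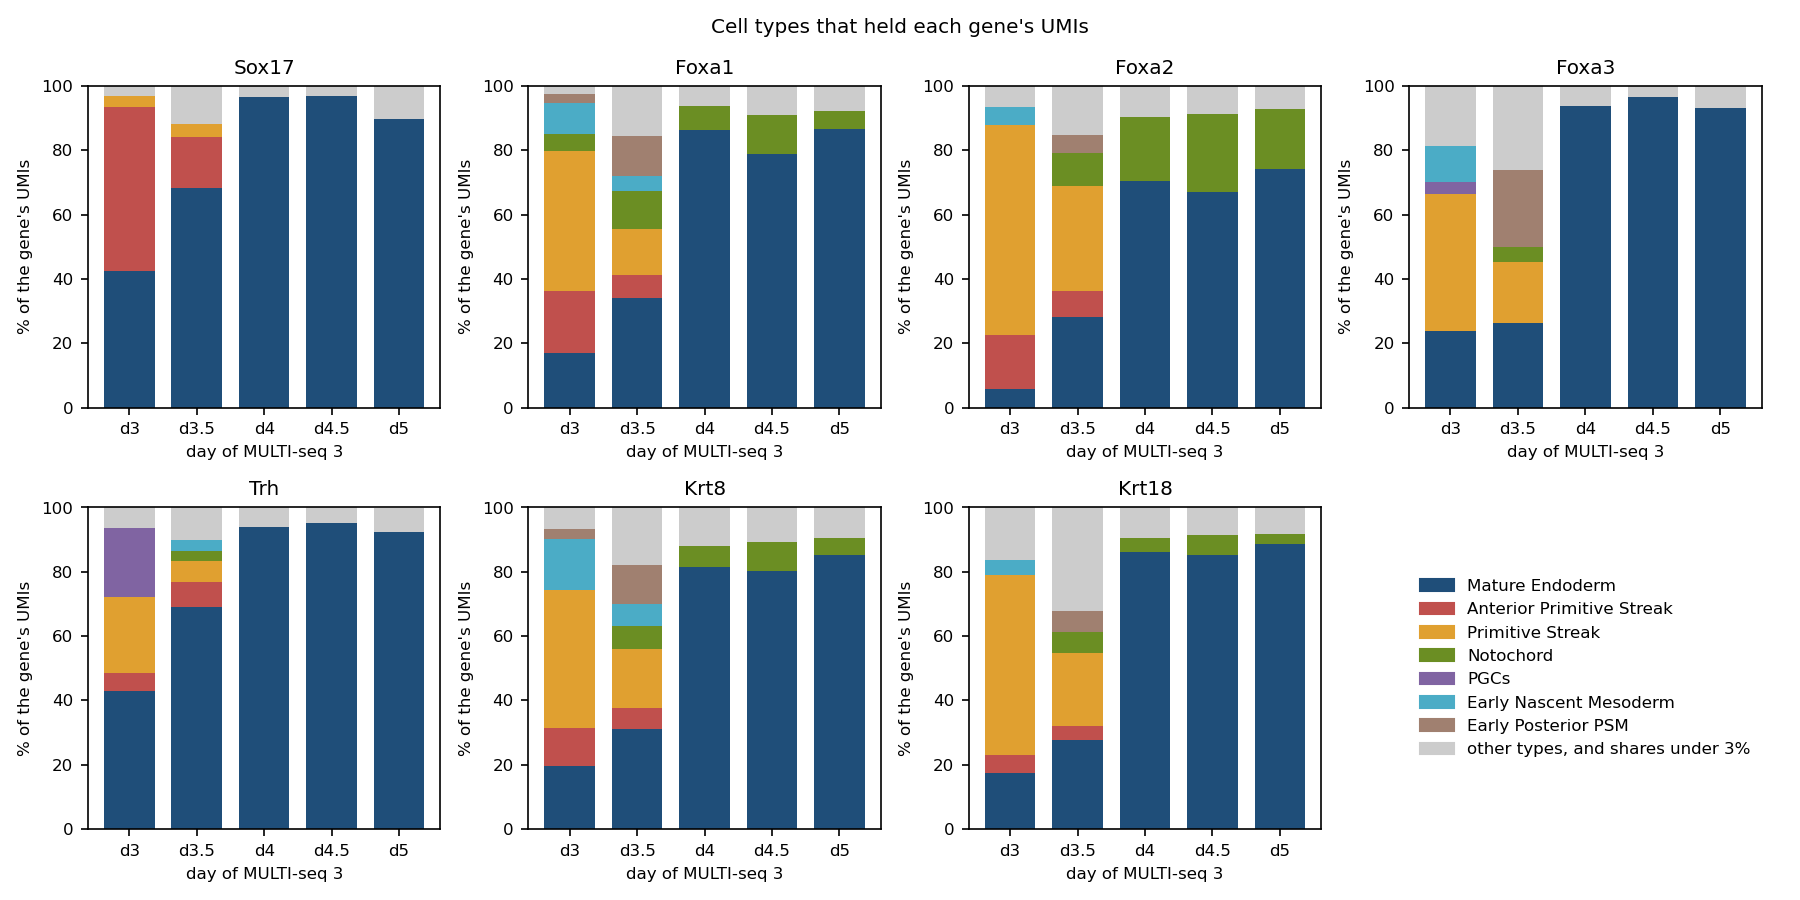
Percent of each gene's UMIs that came from each cell type, by day of MULTI-seq 3, summed over gastruloids; grey holds all other types and shares under 3%. The Mature Endoderm part grows from day 3 to day 4 for each gene, from 42.6% to 96.6% for Sox17 and from 5.72% to 70.3% for Foxa2.

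Day 4 was compared with day 3.5 in MULTI-seq 3, where both days shared a pool and its lanes, to ask which genes changed as the Mature Endoderm share went up. In whole gastruloids 6 of 6 tested members rose, where 31.1% of all 13262 genes tested rose and 60.4% passed in either direction (edgeR's quasi-likelihood test with Benjamini-Hochberg adjustment over all genes tested, 16 gastruloids a day). Foxa3 did not pass the filter on low counts here or in any other fit. Sox17 rose by 2.70 on the log2 scale (SE 0.50, adjusted p = 3.2e-05), Trh by 2.83 (SE 0.56, adjusted p = 6.4e-05) and Krt18 by 2.64 (SE 0.39, adjusted p = 1.2e-06). Foxa1 rose by 2.76, Krt8 by 2.10 and Foxa2 by 1.76, with adjusted p at or below 7.0e-05. The ranges of both days overlapped for each of these genes. Notochord cells, which also carry Foxa2 and the keratins, went from a mean of 1.25% to 3.08% of cells. Of the 6 notochord markers 3 rose and 1 fell, and their sum had a median of 258 CPM at day 3.5 and 99.4 CPM at day 4. That sum is not one of Notochord cells alone. A single marker, shared with the streak lists, held 798 of its 1234 CPM in pooled Notochord cells and 637 of its 653 CPM in Primitive Streak. The part of Notochord cells in the rise was not tested.

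The same comparison over the cells outside Mature Endoderm gave a different result. There 0 of 5 tested members passed, although 61.7% of all genes tested did (edgeR; 0 also by DESeq2, and 0 at an unadjusted p under 0.05). Sox17 had a log2 difference of -0.35 (SE 0.37, adjusted p = 0.43), Foxa2 of 0.73 (SE 0.45, adjusted p = 0.16), Trh of 0.55 (SE 0.36, adjusted p = 0.18), Krt8 of 0.43 (SE 0.32, adjusted p = 0.26) and Krt18 of 0.47 (SE 0.25, adjusted p = 0.10), all by edgeR. The difference between the fits with and without Mature Endoderm was not tested. Because the type was named from expression, leaving it out takes away most UMIs of these genes by construction. At day 4 it held 96.6% of the Sox17 and 93.9% of the Trh UMIs. The fit outside it can therefore not decide between more such cells and more RNA per cell. In Mature Endoderm cells themselves these days could not be fitted, since only 2 gastruloids of day 3.5 held 10 such cells against 14 of day 4. Side by side, the 2 gastruloids of day 3.5 had 244 and 261 CPM of Sox17 and 2439 and 2981 CPM of Trh, inside the ranges of day 4 (200 to 301 CPM and 1299 to 3995 CPM). Krt18 was lower, at 249 and 368 CPM against 339 to 1010 CPM, which overlap, and after thinning 60.9% of the Mature Endoderm cells of day 3.5 and 90.1% of those of day 4 held a UMI of it. The mix differed: 41 of 46 cells of day 3.5 and 227 of 1188 of day 4 were mapped to Anterior Primitive Streak. Those cells had 279 and 390 CPM of Krt18, and cells mapped to Gut tube (4 and 619 cells) 380 and 685 CPM, pooled and with no test. The part of the mix in the Krt18 difference was not tested. Foxa3 had 1.24 and 4.55 CPM at day 3.5 and 4.88 to 18.2 CPM at day 4, without overlap, but at so few UMIs this was not tested. The share of all genes without overlap was not counted.

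Day 4.5 was compared with day 4 in MULTI-seq 2 pool B, again within 1 pool. In whole gastruloids 2 of 6 tested members fell, against 4.33% of all genes tested (7.36% passed in either direction). Sox17 fell by 1.97 on the log2 scale (SE 0.59, adjusted p = 0.041) and Foxa2 fell by 1.87 (SE 0.48, adjusted p = 0.017). Without lane 3 the call of Sox17 was lost (adjusted p = 0.087), as it was with the DESeq2 test (adjusted p = 0.12) and without the filter on low counts (adjusted p = 0.052). Trh had a log2 difference of -2.02 with a larger error (SE 0.69, adjusted p = 0.076), Krt8 of -1.36 (adjusted p = 0.11), Krt18 of -1.27 (adjusted p = 0.14) and Foxa1 of -1.17 (adjusted p = 0.23). Trh and Krt8 passed when lane 2 was left out (adjusted p = 0.020 and 0.048).

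Outside Mature Endoderm, 2 of 4 tested members fell between these days, against 3.51% of all genes tested (6.11% in either direction). Foxa2 fell by 1.97 (SE 0.51, adjusted p = 0.022) and Krt8 fell by 1.28 (SE 0.34, adjusted p = 0.024). The call of Krt8 was lost without lane 3 (adjusted p = 0.096). Foxa2 outside Mature Endoderm came mainly from Notochord, which supplied 20.4% of all Foxa2 UMIs at day 4 and 18.9% at day 4.5. Over the same cells 4 of 6 tested anterior streak markers fell, and 2 of 2 tested notochord markers. The lists share the gene T. Anterior Primitive Streak was not among the types with at least 3% of the Foxa2 UMIs at day 4 and supplied 3.37% at day 4.5. Outside Mature Endoderm the 7 anterior streak markers summed to 101 to 589 CPM per gastruloid at day 4 and 36.1 to 258 CPM at day 4.5, and the 6 notochord markers to 39.2 to 213 CPM and 10.6 to 88.6 CPM, with none at 0 in either group. Their part in the result was not tested.

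Within the Mature Endoderm cells of that pool, Sox17 stood at 325, 326, 333 and 363 CPM in the 4 gastruloids of day 4 and at 227, 254 and 276 CPM in the 3 of day 4.5. The groups did not overlap, and Sox17 fell by 0.50 on the log2 scale (SE 0.11, adjusted p = 0.015 by edgeR). Trh had 2654, 3319, 3369 and 4038 CPM at day 4 and 1473, 2165 and 3511 CPM at day 4.5, which overlap, and fell by 0.58 (SE 0.15, adjusted p = 0.047 by edgeR). That SE uses a spread moderated over all genes and is not the spread of these Trh values alone. The call of Trh was lost with DESeq2 size factors (adjusted p = 0.052) and with the DESeq2 test (adjusted p = 0.74). These were the only calls among 6 tested members, against 1.06% of all genes tested that fell and 1.9% that passed in either direction. Foxa2 had 140, 142, 145 and 178 CPM against 112, 120 and 135 CPM, without overlap, but the difference of -0.42 (SE 0.15) did not pass the test (adjusted p = 0.19). Foxa3 did not overlap either (11.6 to 36.4 CPM against 4.20 to 10.6 CPM). How many of all genes do not overlap at these group sizes was not counted, so the separations of Sox17, Foxa2 and Foxa3 are a description. Krt8 differed by 0.01 (SE 0.12) and Krt18 by -0.08 (SE 0.10). The mix of these cells also differed between the days: 31 cells of day 4 and 3 of day 4.5 were mapped to Anterior Primitive Streak, and 1 and 13 to Hindgut. Among the cells mapped to Gut tube (59 and 44 cells), Sox17 had 370 and 294 CPM and Trh 3396 and 2943 CPM, pooled and with no test. The part of the mix in the falls was not tested. Each gastruloid here rested on 10 to 31 Mature Endoderm cells, and leaving out a lane left too few gastruloids for a fit. In MULTI-seq 3 these days came from different pools and were not tested. There Sox17 in Mature Endoderm was 200 to 301 CPM at day 4 and 225 to 337 CPM at day 4.5. Trh was 1299 to 3995 and 1417 to 5036 CPM, so neither gene was lower as a range at day 4.5.

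Day 5 was compared with day 4.5 in MULTI-seq 3. In whole gastruloids 0 of 6 tested members passed, against 13.5% of all genes tested (edgeR; 0 also by DESeq2, and 0 at an unadjusted p under 0.05), and outside Mature Endoderm 0 of 4 did, against 15.6% (0 by DESeq2 and 0 at an unadjusted p under 0.05). The whole-gastruloid differences ran from -0.60 (SE 0.64) for Trh to 0.75 (SE 0.63) for Foxa1, so that changes of more than 2-fold lie within their errors. Within Mature Endoderm Sox17 had a lowest, median and highest gastruloid at 225, 285 and 337 CPM at day 4.5 (n = 7) and at 189, 227 and 253 CPM at day 5 (n = 9). Sox17 fell by 0.36 (SE 0.08, adjusted p = 0.022), the only call among 6 tested members, where 0.992% of all genes tested fell and 1.63% passed in either direction. The call was lost when lane A, B or C was left out (adjusted p = 0.050, 0.082 and 0.082), with the difference at -0.36, -0.45 and -0.44. Trh had 1417, 2595 and 5036 CPM at day 4.5 and 408, 1796 and 2348 CPM at day 5. Its difference was larger but less even, at -0.84 (SE 0.25, adjusted p = 0.087), and passed without the filter on low counts (adjusted p = 0.019). Foxa2 differed by -0.29 (adjusted p = 0.10), Foxa1 by 0.43 (adjusted p = 0.45), Krt18 by 0.18 (adjusted p = 0.53) and Krt8 by 0.01 (adjusted p = 0.99). The mix of Mature Endoderm cells differed between these days too, with 19 and 8 cells mapped to Anterior Primitive Streak, 14 and 57 to Hindgut, 21 and 71 to Midgut and 3 and 35 to Foregut. Among the cells mapped to Gut tube (85 and 205 cells), Sox17 had 292 and 252 CPM and Trh 3128 and 2075 CPM, pooled and with no test, and the part of the mix in the fall was not tested.

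At day 5 the experiments MULTI-seq 3 and MULTI-seq 1 were compared, where experiment, depth and lanes cannot be told apart from any difference between cultures. In whole gastruloids 2 of 6 tested members were higher in MULTI-seq 3, against 30% of all genes tested (63.7% in either direction), a share near this background: Trh by 1.23 (SE 0.47, adjusted p = 0.021) and Krt18 by 1.38 (SE 0.48, adjusted p = 0.012). Sox17 differed by 1.11 (adjusted p = 0.056), Krt8 by 0.96 (adjusted p = 0.066), Foxa1 by 1.17 (adjusted p = 0.054) and Foxa2 by 0.83 (adjusted p = 0.13). Sox17 and Krt8 passed without lane C of MULTI-seq 3 (adjusted p = 0.037 and 0.045) and without lane 2 of MULTI-seq 1 (adjusted p = 0.0084 and 0.024). Outside Mature Endoderm, Krt18 was higher in MULTI-seq 3 by 1.12 (SE 0.27, adjusted p = 0.00041), 1 of 5 tested members against 29.6% of all genes tested (64.2% in either direction). Within Mature Endoderm Foxa2 was lower in MULTI-seq 3 by 0.39 on the log2 scale (log2 difference -0.39, SE 0.10, adjusted p = 0.0097), 1 of 6 tested members against 5.17% of all genes tested (14.5% in either direction). Its lowest, median and highest gastruloids were 94.1, 107 and 124 CPM in MULTI-seq 3 (n = 9) and 109, 169 and 184 CPM in MULTI-seq 1 (n = 6), which overlap. The other 5 did not pass there, with differences from -0.41 (SE 0.26) for Foxa1 to 0.44 (SE 0.25) for Trh.

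**Figure D4:**
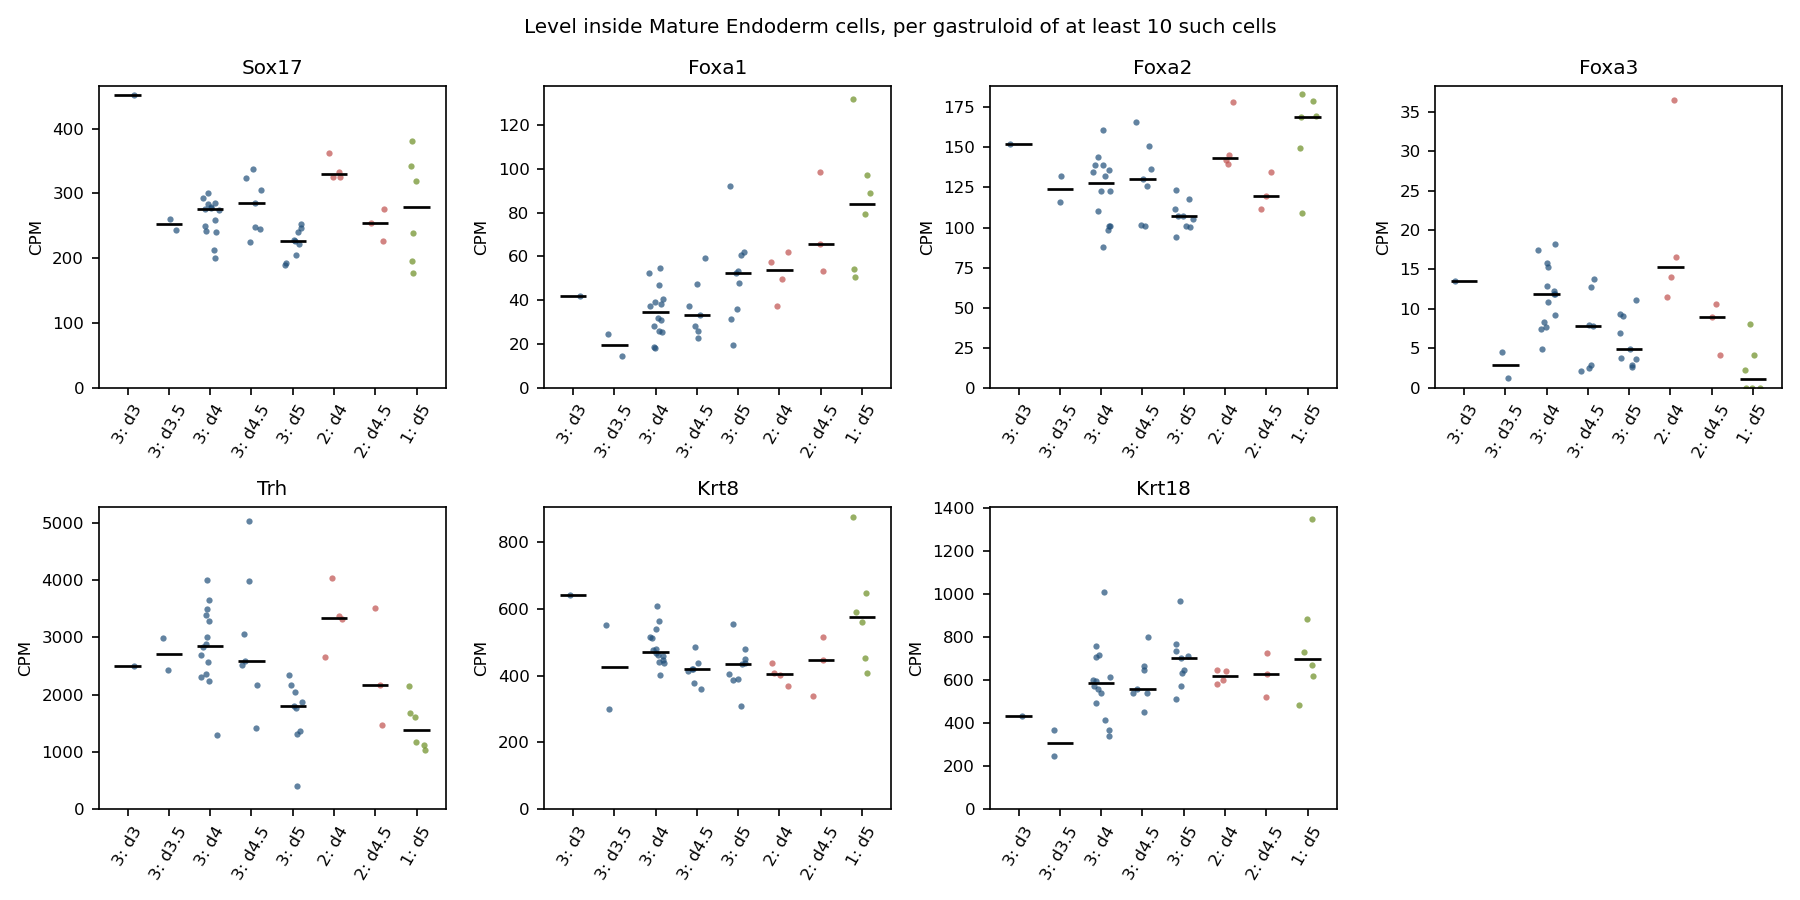
Level of each gene in Mature Endoderm cells, in CPM, by experiment and day; each point is 1 gastruloid with at least 10 such cells. Sox17 sits between 177 and 452 CPM in each of the 46 gastruloids, while Trh ranges from 408 to 5036 CPM and is lowest at day 5.

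The 10X lanes, which have no gastruloid calls, had some higher levels than the gastruloids of the same day. Mature Endoderm cells had 453 CPM of Sox17 in the 10X day 3 lane (54 cells, exact Poisson 95% interval 416 to 493) and 390 CPM in the 10X day 4 lane (56 cells, 355 to 427). The day 4 value was above the gastruloids of that day in MULTI-seq 3 (200 to 301 CPM) and in MULTI-seq 2 (325 to 363 CPM). Krt8 in that lane, at 750 CPM (702 to 800), was also above both (403 to 610 and 368 to 438 CPM). Trh had 4381 and 3973 CPM in the 2 lanes. The single day 3 gastruloid of MULTI-seq 3 with enough Mature Endoderm cells (24 cells) had 452 CPM of Sox17, close to the 10X lane of that day, and 2500 CPM of Trh, below it. In the lanes of pool C of MULTI-seq 2, Sox17 stood at 231 and 275 CPM and Trh at 2476 and 2599 CPM.

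Pearson's r of log2(CPM + 1) was computed for the 21 pairs in each of the 8 groups, and 161 of 168 values passed at an adjusted p of 0.05, all positive (two-sided permutation test with 100000 resamples, Benjamini-Hochberg over the 168). The smallest p such permutations can give is 1e-05, which is 2.24e-05 after adjustment. Over all pairs of the genes with a mean of at least 1 CPM in a group, 2.09% to 8.64% had an r at or above the lowest called r of the members in that group. The median r over all such pairs was 0.00 to 0.04 in the 8 groups, and that over the 21 member pairs 0.75 to 0.93. Over the 8 groups Krt8 and Krt18 had a median r of 0.98 (0.86 to 0.99), Sox17 and Krt8 of 0.97 (0.80 to 1.00), and Sox17 and Trh of 0.95 (0.78 to 0.98). For Sox17 and Trh Spearman's rho was 0.56 to 0.98, with permutation p adjusted over the 168 of 3.23e-05 to 0.0058. Pairs with Foxa3 were weaker, with median r of 0.69 to 0.79, and the 7 values that did not pass were pairs with Foxa3, 6 of them at day 3.5 of MULTI-seq 3.

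Over the cells outside Mature Endoderm the median r was lower for every pair, and the difference was not tested. It was 0.86 for Krt8 and Krt18, 0.76 for Foxa2 and Krt8, 0.75 for Foxa1 and Krt8 and 0.60 for Sox17 and Trh. For Sox17 and Foxa3 it was -0.19, given as a description, because Foxa3 was near the floor in these cells. Its group means there were 0.0100 to 0.439 CPM, with 14 of 16 gastruloids at 0 at day 4.5 of MULTI-seq 3. When the 2 gastruloids farthest from the median of the first gene were left out, r stayed above 0.5 in all called pairs at days 4, 4.5 and 5 of MULTI-seq 3, and in 6 of 21 at day 3. At day 3 r was under 0.5 without them in the other 15 pairs, while Foxa2 and Krt8 had 0.66 and Trh and Krt18 0.64. For Krt8 and Krt18 of that day r was 0.86 over 24 gastruloids, 0.48 without those 2, and rho was 0.37 (permutation p adjusted over the 168 = 0.083). The group with the deepest gastruloids, day 4 of MULTI-seq 3, had r of 0.78 to 0.98 over its 21 pairs.

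**Figure D5:**
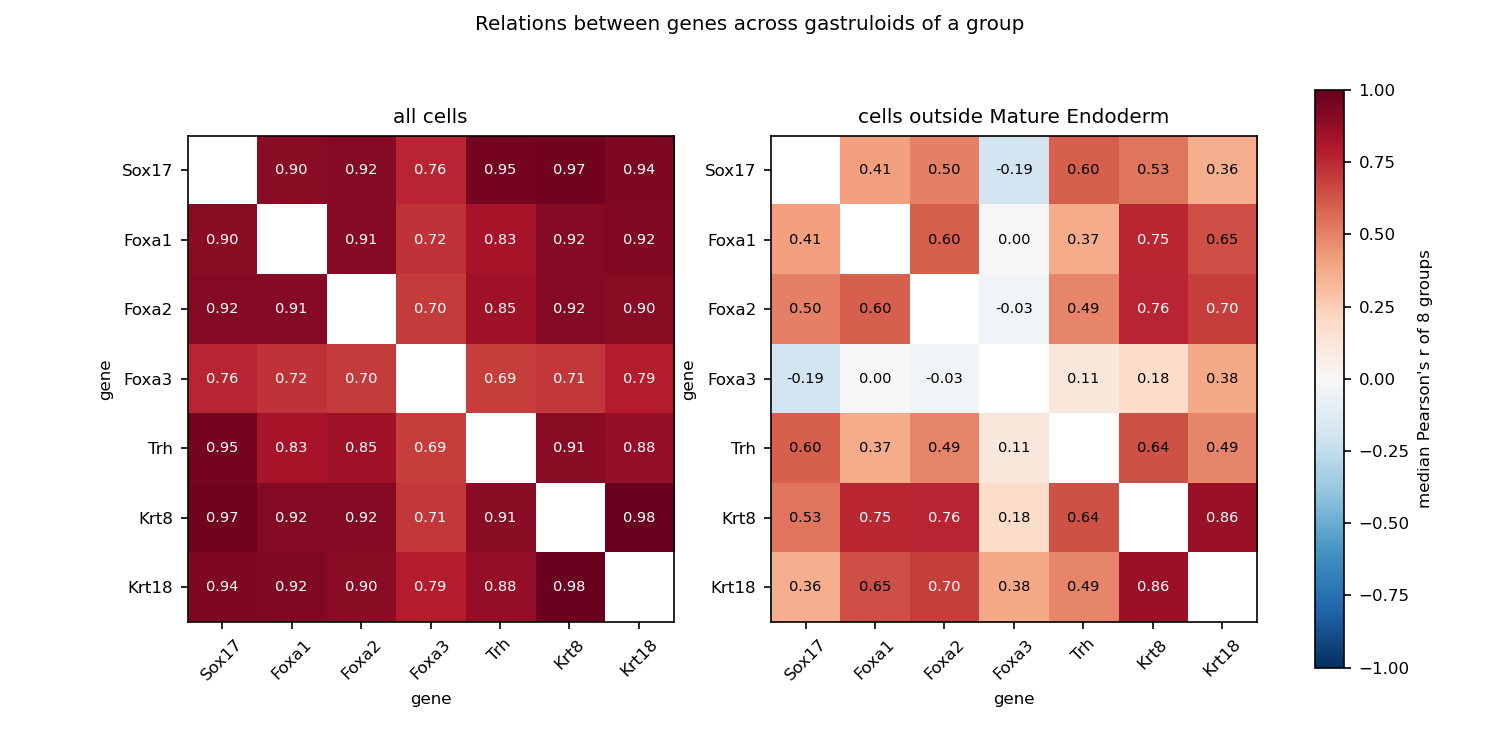
Median over the 8 groups of Pearson's r between gastruloids for each pair of genes, over all cells and over the cells outside Mature Endoderm. Over all cells the medians run from 0.69 to 0.98, and outside Mature Endoderm from -0.19 to 0.86, with the keratin pair highest in both. The lowest is that of Sox17 and Foxa3, and Foxa3 is near the floor outside Mature Endoderm.

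Across cell types, the genes most like each member were listed by Pearson's r of log2(CPM + 1) over 22 types, which share libraries and depth, among 9846 genes. Krt8 and Krt18 were nearest to each other (r = 0.96), and Trh was nearest to Emb (0.95), which encodes the cell surface protein embigin, then to Krt18 (0.94) and Krt8 (0.92). Foxa1 was nearest to the long noncoding RNA 9030622O22Rik (0.96), whose gene lies 2673 bases from Foxa2 on chromosome 2. Next came the keratin gene Krt19 (0.93), Pkd1l1 (0.92) and the keratin gene Krt7 (0.92). Foxa2 was nearest to the tight junction gene Cldn6 (0.98), Tnfrsf12a (0.96) and the ribosomal protein gene Rps27 (0.93). Sox17 was nearest to Flt1 (0.90), a VEGF receptor gene high in Endothelium, Foxq1 (0.89) and Grb14 (0.88). Foxa3 did not reach 10 CPM in any type and got no such list.

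Other endoderm genes were read from 4 lists, for endoderm and gut transcription factors (19 genes), epithelial genes (19), gut tube surface and secreted genes (13) and visceral and extra-embryonic endoderm (14). In whole gastruloids between day 3.5 and day 4 of MULTI-seq 3, 9 of 14 tested transcription factors rose and 2 fell, with Cer1, a secreted antagonist listed with them, at 4.60, Prdm1 at 3.67 and Otx2 at 2.94 on the log2 scale. Of all 13262 genes tested, 4131 rose and 3875 fell. The median over that list was 1.38, beside 0.01 over all genes tested. Of 18 tested epithelial genes 8 rose, among them the claudin genes Cldn6 (2.25) and Cldn7 (1.83), and 5 fell, among them Spint1 (-0.91), with a median of 0.05. Of 9 tested gut genes 5 rose and none fell, with the protease inhibitor gene Spink1 at 4.67, and 2 of 4 tested visceral endoderm genes rose.

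Outside Mature Endoderm the same comparison turned for the epithelial list, in which 0 rose and 14 of 16 tested fell, among them Epcam (-1.64) and Cdh1 (-1.60), which encode adhesion proteins of epithelia. Of all 13184 genes tested there, 4053 rose and 4079 fell. The 6 Primitive Streak markers summed to a median of 725 CPM at day 3.5 and 255 CPM at day 4 in the same cells. Primitive Streak had the second highest level of Epcam (323 CPM) and Cdh1 (89.4 CPM) among the types, and the part of that in the fall was not tested. The transcription factors still had 8 of 14 higher there, with Cer1 at 5.38, Otx2 at 2.67 and Gata6 at 2.04. Cer1 was highest in Head Mesoderm (163 CPM) and had 11.9 CPM in Mature Endoderm. Of 7 tested gut genes 0 rose and 3 fell.

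Between day 4 and day 4.5 of MULTI-seq 2, genes of the streak were among those that fell in whole gastruloids. Of 11 tested transcription factors 3 fell, Gsc (-2.78), Lhx1 (-2.73) and Mixl1 (-2.54), and 6 of 11 epithelial and 4 of 7 gut genes fell too, with none higher in these lists, where 4.33% of all genes fell. In Mature Endoderm cells of that pool, 3 of 10 tested factors fell, with Eomes at -2.87 and Lhx1 at -1.99, and 1 rose, Cdx2, a factor of the posterior gut (1.75). Krt19 rose by 1.60, the only call among 15 tested epithelial genes, and Car4 (-1.43) and Spink1 (-1.15) were among 3 of 8 gut genes that fell. Of all 6579 genes tested in these cells, 1.06% fell and 55 genes rose. DESeq2 called 44 genes there against 125, and of the 8 calls of these lists it kept Krt19 and Car4. Cdx2 and Lhx1 had adjusted p of 0.44 and 0.41 with it, and for Eomes it gave none.

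Between day 4.5 and day 5 of MULTI-seq 3, no gene of the 4 lists passed in whole gastruloids, where 13.5% of all genes tested did. Within Mature Endoderm 3 of 12 tested factors rose: Otx2 (1.78), Isl1 (1.43) and Pax9 (0.79), factors known from foregut and pharyngeal endoderm among other tissues. Of all 8363 genes tested there 53 rose, and without lane C of that experiment 1 gene of all tested did, so at most 1 of the 3 can pass without it. With DESeq2 2 of the 12 factors were higher. The desmosome gene Dsp fell (-0.51), 1 of 8 tested gut genes, and 0 of 16 epithelial genes passed. Of all genes tested in these cells 0.992% fell and 1.63% passed in either direction. At day 5, whole gastruloids of MULTI-seq 3 had 4 of 11 factors, 6 of 12 epithelial genes and 5 of 9 gut genes higher than those of MULTI-seq 1, with Spink1 at 2.68, and 1 factor, Cdx2, lower (-0.64). Of all genes tested in that comparison 30% were higher. There, in Mature Endoderm cells, Spink1 (1.38) and Gpx2 (0.67) were higher, Lhx1 was higher (2.04), Pax9 was lower (-0.71), and 3 of 16 tested epithelial genes were higher and 1 lower. Of all 8344 genes tested in these cells, 781 were higher and 5.17% lower.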

How the data were processed

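Single cells of 18 droplet lanes were sequenced as 10x Chromium 3′ libraries. The deposited matrices hold UMI counts per gene and cell, which per the file headers came out of Cell Ranger 6.0.0, and the submitters' processing notes name mm10 and Seurat. Cell type names, mapped types and gastruloid calls are the authors' deposited metadata, which list 77674 cells of 121102 barcodes (9 more listed cells were not in a matrix). Cells without a single gastruloid call entered no gastruloid sum, and no doublet caller was run. Days 3 and 3.5 of MULTI-seq 2 were not analysed here.

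The replicate was the gastruloid: counts were summed over its cells and the lanes of its pool, with at least 30 cells, or 10 of a type, and 135 of 136 gastruloids passed the first limit. Lanes are technical splits. CPM are counts per 1000000 UMIs of the same sum. Groups were compared with edgeR 4.0.16 (TMM, filterByExpr, quasi-likelihood test, Benjamini-Hochberg at 0.05 over all genes tested, only the gastruloids compared in a fit), and DESeq2 1.42.0 was an alternative, with other normalization, no filter, a higher cell minimum and each lane left out. A SE is the log2 difference over the root of the test's F, which uses a spread moderated over all genes tested. Scripts were tested on simulated data. Intervals are exact and cover counting error only. Analyses used R 4.3.3, Python 3.11.15 and scipy 1.17.1.

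Named genes were all 7 members, genes among the 5 most like each across types, and from each list up to 3 called genes with the largest change among those with at least 10 CPM in 1 group. Members and lists were chosen with earlier results of these data known.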

Additional observations from a re-analysis of the deposited data

Results flagged for a closer look

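In Mature Endoderm cells of day 4 in MULTI-seq 2, the Foxa2 level of 1 of 4 gastruloids stood apart from the others. It was 178 CPM, and the next highest gastruloid had 145 CPM, a gap of 0.863 of the whole range. In all, 28 groups of 4 to 10 gastruloids were examined in this way, and chance alone marks about 1 in 20.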

How the results depend on the processing

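The alternatives tried were other size factors, no filter on low counts, a higher minimum of cells, DESeq2, and each lane left out. Apart from lanes left out, 218 fold changes of members kept their direction and side of the threshold, 4 gained a call, 4 lost one and 2 changed sign; with a lane left out these were 171, 6, 5 and 10. Without 1 lane the number of genes called was 340 to 535 in whole gastruloids of MULTI-seq 2 (814 with all lanes), 230 to 333 outside Mature Endoderm (655), 9 to 47 in Mature Endoderm between days 4.5 and 5 of MULTI-seq 3 (136), and 792 to 1226 in Mature Endoderm at day 5 (1212). With no filter, 229 genes were called in Mature Endoderm of MULTI-seq 2 (125) and 242 between days 4.5 and 5 (136), and the DESeq2 test called 44 in the former. With no filter the share of higher among called genes went from 47.2% to 62.9% in whole gastruloids between days 4.5 and 5, from 39.0% to 51.7% in their Mature Endoderm, and from 64.4% to 74.3% in Mature Endoderm at day 5. No difference that changed sign had passed the test. Between days 4.5 and 5, leaving out a lane gave -0.15 to 0.26 for Sox17 and -0.38 to 0.10 for Foxa2 in whole gastruloids. Outside Mature Endoderm it gave -0.14 to 0.25 for Trh, -0.54 to 0.13 for Krt8 and -0.46 to 0.45 for Krt18, and DESeq2 gave 0.0502 for Foxa2. In Mature Endoderm it gave -0.0486 to 0.1021 for Krt8, and at day 5 -0.0799 to 0.23 for Krt18; Krt8 in MULTI-seq 2 gave -0.0348 with no filter. The cause was not tested. Thinning to 2000 UMIs, which lowers shares by construction, gave 38.7% of Mature Endoderm cells with Sox17, 21.0% with Foxa2, 59.2% with Krt8 and 65.9% with Krt18, and 8.76% with Sox17 and Foxa2, 34.6% with Sox17 and Trh and 40.9% with both keratins. Relations between members gave 154 to 166 calls under the alternatives (161). Not run for want of gastruloids were Mature Endoderm between days 3.5 and 4, a minimum of 20 cells in the Mature Endoderm of MULTI-seq 2 and of days 4.5 and 5, and some fits there without a lane. No paired analysis was possible because only lanes share numbers, and the gastruloids compared are different ones.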
